A study of Mus musculus with 12 samples.

Results

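The mitochondrial solute carriers of the Slc25a family were followed in the mouse ileum after zinc in the drinking water and an injection of the synthetic glucocorticoid dexamethasone (Dex). The family was taken as every gene of the deposited table whose mouse symbol is Slc25a followed by digits only, which gave 47 of 54838 genes and left out the pseudogene Slc25a5-ps. Groups of 3 female C57BL/6J mice from a commercial breeder drank water or 25 mM ZnSO4 for 7 days, then received 200 µg Dex or PBS intraperitoneally, and ileum was taken 2 h later. This gave the groups water + PBS, water + Dex, ZnSO4 + PBS and ZnSO4 + Dex, and PBS was the vehicle in the groups without Dex. The labels name no transgene, deletion or other treatment. The libraries held whole ileum with its several cell types, so fewer cells of a type and less RNA per cell cannot be told apart.

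Slc25a proteins sit in the inner mitochondrial membrane, with exceptions in peroxisomes and the outer membrane, and share a fold of repeated modules that opens in turn to either side. They exchange the substrates that the matrix and the cytosol need from each other: ADP against ATP, phosphate, Krebs cycle acids, amino acids, acylcarnitine, nucleotides, cofactors and iron. In the absorptive cells of the small intestine they serve oxidative phosphorylation, fatty acid oxidation, glutamine use and citrulline synthesis. Glucocorticoids act through a nuclear receptor that changes transcription within hours, and zinc induces metallothioneins through a metal-sensing transcription factor.

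The libraries held between 10760132 and 11827487 counted reads, with a median of 11388606. The 4 Dex-induced genes checked (Fkbp5, Tsc22d3, Per1 and Ddit4) summed to between 22309 and 26944 normalised counts in the 6 Dex mice and between 2126 and 2507 in the 6 PBS mice, and the metallothionein and zinc transporter genes Mt1, Mt2 and Slc39a4 separated all ZnSO4 mice from all water mice. Counts were scaled to a common library size of 11377723 reads by edgeR's TMM method and are called normalised counts. The 6 enterocyte markers were all present and summed to between 97997 and 174877, with the lowest value in ZnSO4 + Dex replicate 2, which was also lowest for Apob, a lipoprotein gene of enterocytes (10705 normalised counts). The marker Slc10a2 itself rose with Dex, with means of 10645 in water + PBS, 20087 in water + Dex, 10121 in ZnSO4 + PBS and 22597 in ZnSO4 + Dex. It passed the test described below in each comparison of Dex with PBS mice, and the other enterocyte markers passed it in none. Sums of 7 B cell markers ran from 123 to 6605 and differed within groups. Sums of 5 T cell markers lay between 741 and 1282 in the water mice and between 356 and 731 in the ZnSO4 mice, and their part in the carrier changes with ZnSO4 was not tested. Carrier calls that were lost without ZnSO4 + Dex replicate 2, and such pathway calls in comparisons with that group, are named below.

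Most of the family was expressed, at very unequal levels. Of the 47 genes, 40 passed edgeR's filter on low counts (a minimum count of 10). Slc25a2, Slc25a18, Slc25a21, Slc25a31, Slc25a41 and Slc25a54 had 3 or fewer counts in every library, which is within what a count of 0 allows (3 counts, for counting error only). Slc25a31 is the germ cell form of the ADP/ATP carrier and Slc25a41 an ATP-Mg carrier without calcium binding. Slc25a43 had at most 11 counts and was not tested either. Its normalised counts were 10.7, 6.02 and 5.70 in water + PBS and between 1.83 and 4.32 in the other mice.

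Levels of different genes were compared per exon length, as TPM. On this scale the ADP/ATP carrier Slc25a5 stood first with a mean of 1568 TPM over all libraries. The calcium-regulated ATP-Mg/phosphate carrier Slc25a24 followed with 309.8 TPM, the phosphate carrier Slc25a3 with 299.7, the citrate carrier Slc25a1 with 128.4 and the glutathione carrier Slc25a39 with 125.8. Slc25a24 and Slc25a3, and likewise Slc25a1 and Slc25a39, differed in level by less than their spread between mice. These 5 genes held 70.9% of the family's summed level per length, and Slc25a5 alone 45.7%. Of all 31-base stretches in Slc25a5 transcripts, 49.4% also occur elsewhere, mainly in the pseudogene Slc25a5-ps, and reads with several positions had been left out, so its level is uncertain. The median of the 40 tested genes was 17.1 TPM, and the lowest were Slc25a27, Slc25a53 and Slc25a47.

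**Figure D1:**
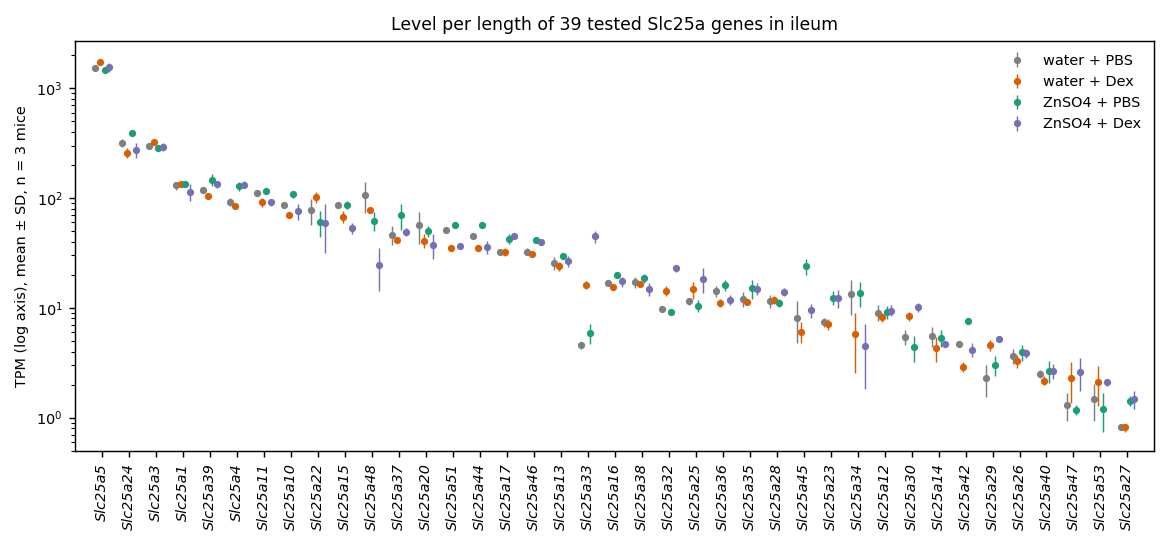
Mean level per length (TPM, log axis) of 39 of the 40 tested Slc25a genes in each group, with error bars of 1 SD over 3 mice, ordered by the mean over all libraries. Slc25a5 at 1568 TPM stands above all other genes, and the groups of Slc25a33, Slc25a45 and Slc25a48 stand apart.

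The summed share of the family in each library varied little. It was 4130 ± 39.5 CPM (SD, n = 3) in water + PBS, 4066 ± 94.4 in water + Dex, 4193 ± 122 in ZnSO4 + PBS and 3889 ± 189 in ZnSO4 + Dex, and the extremes of all libraries were 3701 and 4313. Per length the sums were 3421 ± 15.6, 3457 ± 153, 3539 ± 108 and 3307 ± 301 TPM in the same order. The lowest library was ZnSO4 + Dex replicate 2.

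Changes of single carriers ran in both directions and left the middle of the family in place. A gene was called at a Benjamini-Hochberg adjusted p under 0.05 over the 15938 genes tested (edgeR quasi-likelihood test), and the log2 fold change is written LFC. Of the 40 carriers, 21 were called in at least 1 of the 5 pairwise comparisons, where 28.5% of all tested genes were, and 19 in none of them. ZnSO4 in PBS mice raised 4 carriers and lowered 0, where 2.11% of all genes rose and 2.54% fell. At an unadjusted p under 0.05 this comparison had 10 of the 40 carriers in either direction, beside 3161 of the 15938 genes tested. DESeq2 called 1 carrier lower. Dex in water mice raised 4 and lowered 2, beside 5.41% and 4.51% of all genes. ZnSO4 in Dex mice raised 5 and lowered 1, beside 1.83% and 2.54%. Dex in ZnSO4 mice raised 7 and lowered 7, that is 17.5% each, beside 6.65% and 7.08%. ZnSO4 + Dex against water + PBS raised 10 (25%) and lowered 6 (15%), beside 11.5% and 11.9%. The median LFC of the carriers was 0.01, 0.00, 0.05, -0.01 and 0.05 in these comparisons, and the median of all tested genes -0.01, -0.01, 0.01, 0.01 and -0.01. With library totals in place of TMM factors, Dex raised 4 and lowered 4 carriers in water mice and raised 6 and lowered 10 in ZnSO4 mice. That scaling moved the median LFC of all tested genes to -0.13 and -0.04 in these comparisons. The share of all genes called under it is not given. These comparisons share libraries, so their counts are not independent of each other.

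Several of these counts depended on 1 library, and the shares of all genes called in the fits without 1 library are not given. Without ZnSO4 + Dex replicate 2, ZnSO4 in Dex mice raised 3 carriers, Dex in ZnSO4 mice raised 4 and lowered 6, the combined treatment raised 10 and lowered 3, and ZnSO4 in PBS mice lowered 1. The 7 carriers raised by Dex in ZnSO4 mice were also 4 without ZnSO4 + Dex replicate 1 or ZnSO4 + PBS replicate 3. The 4 raised by ZnSO4 in PBS mice were 1 without water + PBS replicate 2 and 2 without either of the other water + PBS mice or any ZnSO4 + PBS mouse. The 5 raised by ZnSO4 in Dex mice were 3 without any 1 of the water + Dex mice. The 2 lowered by Dex in water mice were 1 without water + PBS replicate 1 or water + Dex replicate 1 or 2, and the 6 lowered by the combined treatment were 3 without water + PBS replicate 1.

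**Figure D2:**
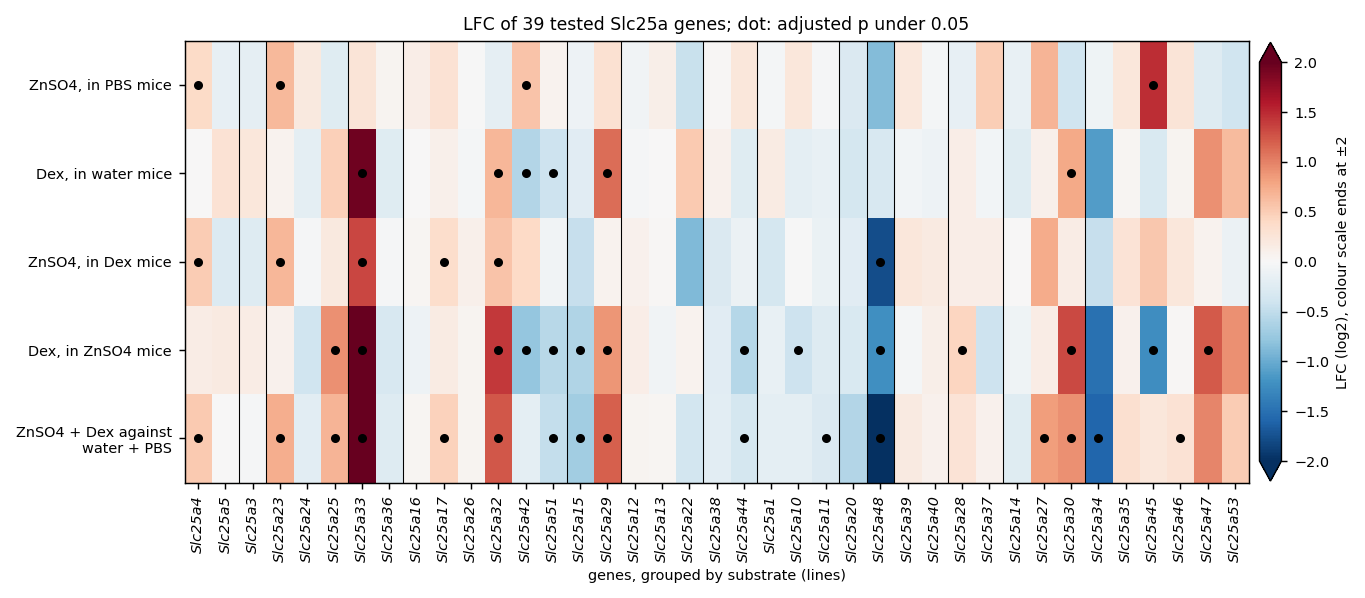
LFC (log2, colour) of 39 of the 40 tested Slc25a genes in the 5 pairwise comparisons, with genes grouped by substrate between vertical lines and dots where the adjusted p was under 0.05. Slc25a33 carries 4 dots on red, Slc25a48 carries 3 on blue, and most genes are pale throughout.

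The pyrimidine nucleotide carriers were Slc25a33 and Slc25a36, which bring uridine and cytidine nucleotides into the matrix for mitochondrial DNA and RNA synthesis. Slc25a33 (ENSMUSG00000028982, chr4:149744036-149774277, minus strand, GRCm38) was the carrier with the largest LFC in size, whatever its sign, in 3 of the 5 comparisons. It had 37.9, 42.1 and 39.0 normalised counts in water + PBS, and 38.7, 50.3 and 53.7 in ZnSO4 + PBS. It had 156, 135 and 166 in water + Dex, and 345, 373 and 443 in ZnSO4 + Dex. Both Dex groups lay above both PBS groups without overlap, and every ZnSO4 + Dex mouse lay above every water + Dex mouse. In terms of the fit, Dex raised Slc25a33 by an LFC of 1.94 (SE 0.16, adjusted p = 1.38e-05, edgeR) in water mice and of 3.02 (SE 0.15, adjusted p = 5.64e-07) in ZnSO4 mice. ZnSO4 raised it in Dex mice (LFC 1.34, SE 0.14, adjusted p = 6.94e-04). In PBS mice it was not called. All 4 calls of Slc25a33 were kept in every fit without 1 library. An antisense gene, Gm13068, covers 14.9% of its exons and had at most 9 counts in any library. Slc25a36 was called in no comparison and had means of 630 in water + PBS and 524 in ZnSO4 + Dex.

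The cofactor carriers moved in both directions. Slc25a32 (ENSMUSG00000022299, chr15:39091231-39112716), which brings folate or FAD into mitochondria, had 298, 266 and 252 normalised counts in water + PBS and 235, 243 and 244 in ZnSO4 + PBS. It reached 459, 381 and 456 in water + Dex and 712, 586 and 629 in ZnSO4 + Dex. There was no overlap between Dex and PBS mice or between water + Dex and ZnSO4 + Dex mice. Dex raised Slc25a32 by an LFC of 0.67 (SE 0.10, adjusted p = 0.00155) in water mice and of 1.42 (SE 0.10, adjusted p = 6.62e-06) in ZnSO4 mice, and ZnSO4 raised it in Dex mice by 0.57 (SE 0.10, adjusted p = 0.00951). These calls were kept without any 1 library. Slc25a51, the NAD+ carrier, fell with Dex. It had 1329, 1252 and 1276 normalised counts in water + PBS and 921, 982 and 1001 in water + Dex (LFC -0.41, SE 0.07, adjusted p = 0.00294), and 1456, 1314 and 1300 in ZnSO4 + PBS against 951, 863 and 948 in ZnSO4 + Dex (LFC -0.56, SE 0.07, adjusted p = 2.9e-04). The 6 Dex mice all lay below the 6 PBS mice, and neither call was lost without 1 library. Slc25a42, a coenzyme A carrier, also fell with Dex, from a mean of 131 to 86.6 in water mice (LFC -0.59, adjusted p = 0.0209) and from 195 to 114 in ZnSO4 mice (LFC -0.77, adjusted p = 0.00324), and rose with ZnSO4 in PBS mice (LFC 0.58, adjusted p = 0.039). The rise with ZnSO4 was lost without any water + PBS or ZnSO4 + PBS mouse or without replicate 1 of water + Dex or ZnSO4 + Dex, with an adjusted p of up to 0.139, and the fall in water mice without water + PBS replicate 1 or water + Dex replicate 1 or 2 (up to 0.078). Slc25a17, which carries coenzyme A, FAD and NAD in peroxisomes, had means of 424 in water + PBS, 456 in water + Dex, 521 in ZnSO4 + PBS and 585 in ZnSO4 + Dex. It rose with ZnSO4 in Dex mice (LFC 0.36, adjusted p = 0.0363) and with the combined treatment (LFC 0.46, adjusted p = 0.00235). The former call was lost without any water + Dex or ZnSO4 + Dex mouse or without ZnSO4 + PBS replicate 2 or 3 (adjusted p up to 0.156). Slc25a16 and Slc25a26, linked to coenzyme A and S-adenosylmethionine, were called in no comparison.

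Among the carriers of ornithine and basic amino acids, Slc25a29 rose and Slc25a15 fell. Slc25a29 (ENSMUSG00000021265, chr12:108825873-108835883), which carries arginine and lysine, had 19.5, 26.1 and 36.1 normalised counts in water + PBS and 41.5, 24.7 and 35.2 in ZnSO4 + PBS. It had 64.7, 57.2 and 56.2 in water + Dex and 59.1, 60.5 and 67.3 in ZnSO4 + Dex. All Dex mice lay above all PBS mice, and the water and ZnSO4 mice overlapped within either injection. The LFC with Dex was 1.12 (SE 0.24, adjusted p = 0.0106) in water mice and 0.88 (SE 0.23, adjusted p = 0.0258) in ZnSO4 mice. The latter call was lost without ZnSO4 + PBS replicate 2 or 3 or any ZnSO4 + Dex mouse (adjusted p up to 0.091). Slc25a15, the ornithine carrier of the urea cycle and of citrulline synthesis, had means of 2227 ± 167 in water + PBS, 1894 ± 228 in water + Dex, 2084 ± 254 in ZnSO4 + PBS and 1380 ± 190 in ZnSO4 + Dex. It fell with Dex in ZnSO4 mice (LFC -0.59, adjusted p = 0.00895) and with the combined treatment (LFC -0.69, adjusted p = 0.00244), and both calls were kept in every fit without 1 library.

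Uncoupling proteins let protons leak across the inner membrane, and their relatives Slc25a30 and Slc25a27 rose where they were called. Slc25a30 (ENSMUSG00000022003, chr14:75760117-75787037), first described in kidney mitochondria, had 114, 130 and 96.0 normalised counts in water + PBS, 188, 171 and 218 in water + Dex, 73.5, 107 and 76.0 in ZnSO4 + PBS, and 224, 222 and 193 in ZnSO4 + Dex. The Dex mice lay above the PBS mice without overlap. The LFC with Dex was 0.76 (SE 0.17, adjusted p = 0.0139) in water mice and 1.32 (SE 0.17, adjusted p = 3.71e-04) in ZnSO4 mice. The call in water mice was lost without water + PBS replicate 3 or water + Dex replicate 3 (adjusted p up to 0.0708). Slc25a27 (ENSMUSG00000023912, chr17:43641891-43667214), best known in brain, had 15.6, 14.0 and 15.2 normalised counts in water + PBS, 14.5, 17.3 and 16.2 in water + Dex, 27.3, 23.8 and 21.3 in ZnSO4 + PBS, and 31.1, 27.9 and 21.4 in ZnSO4 + Dex. Every ZnSO4 mouse lay above every water mouse. The combined treatment was called (LFC 0.84, SE 0.21, adjusted p = 0.0151), and this call was lost with DESeq2 (adjusted p = 0.0932) and without water + PBS replicate 2 or ZnSO4 + Dex replicate 1 (up to 0.0718). The changes with ZnSO4 in PBS mice (LFC 0.69, adjusted p = 0.102) and in Dex mice (0.74, adjusted p = 0.0801) did not pass the threshold. Slc25a14 was called in no comparison.

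The 4 carriers that rose with Dex in both water and ZnSO4 mice were Slc25a29, Slc25a30, Slc25a32 and Slc25a33, and Slc25a42 and Slc25a51 fell in both. These comparisons share no mice, so each gives the Dex difference in separate animals. All 6 carriers called with Dex in water mice were called in ZnSO4 mice with the same sign, as were 75.6% of the 1582 genes of all kinds called in water mice. Of the 40 carriers, 33 (82.5%) had the same sign in both, beside 71.4% of all tested genes. Across the 40 carriers the LFC of both comparisons had a Pearson r of 0.93 and a Spearman correlation of 0.88, beside a Pearson r of 0.72 over all tested genes. These values describe genes that are not independent. For ZnSO4 in PBS and in Dex mice, which also share no mice, 25 of 40 carriers (62.5%) had the same sign beside 69.4% of all genes, and Slc25a4 and Slc25a23 were called in both, that is 2 of the 4 carriers called in PBS mice beside 48% of all genes called there.

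**Figure D3:**
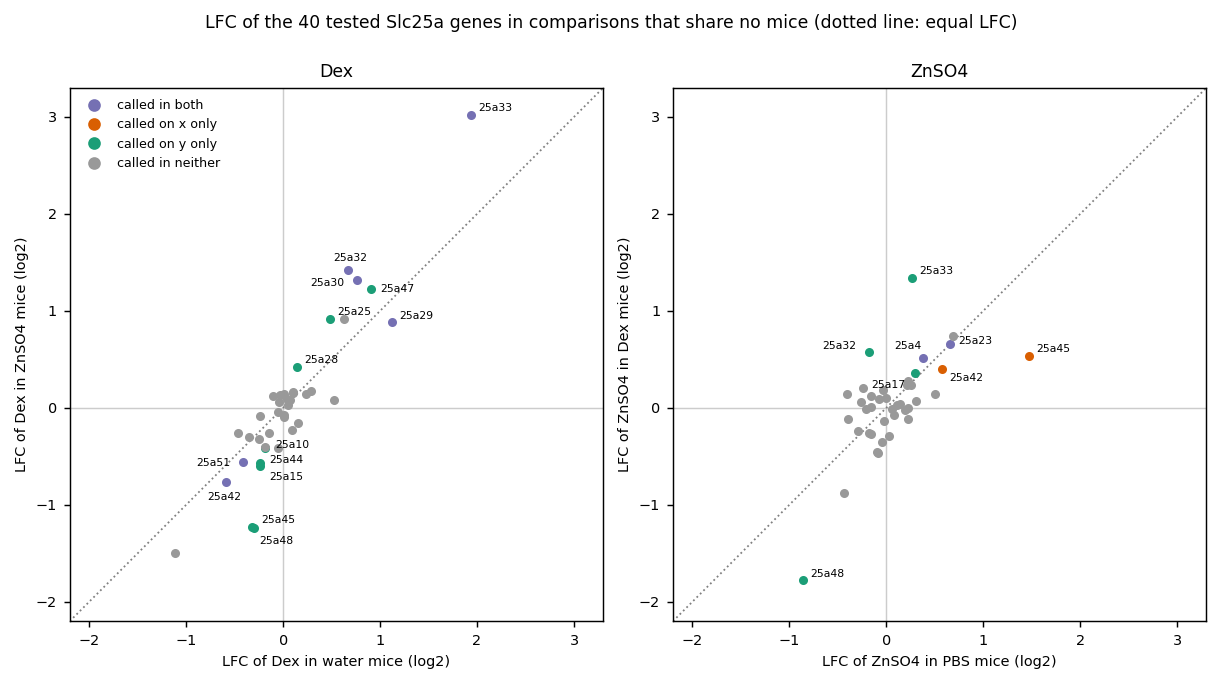
LFC (log2) of the 40 tested Slc25a genes, each point a gene, for Dex in water mice against Dex in ZnSO4 mice (left) and ZnSO4 in PBS mice against ZnSO4 in Dex mice (right), with colours for the comparisons in which a gene was called and a dotted line of equal LFC. The 6 genes called on both axes at left have the same sign, and Slc25a33 lies above the line at 1.94 and 3.02.

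Whether ZnSO4 changed the response to Dex was tested with the interaction of both treatments. No carrier was called, and 0 of all 15938 genes were (0%). The lowest adjusted p was 0.952. At an unadjusted p under 0.05 there were 5 carriers of 40 and 794 of all genes, and DESeq2 called 0 carriers. The larger Dex response of Slc25a33 in ZnSO4 mice had an interaction LFC of 1.08 (unadjusted p = 3.2e-04 by edgeR) and that of Slc25a32 of 0.75 (unadjusted p = 2.72e-04), and neither passed the correction. The others were Slc25a45 (-0.94), Slc25a30 (0.55) and Slc25a44 (-0.33). The calls of Slc25a25, Slc25a47 and other carriers in ZnSO4 mice alone are therefore not shown to differ from water mice.

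**Figure D4:**
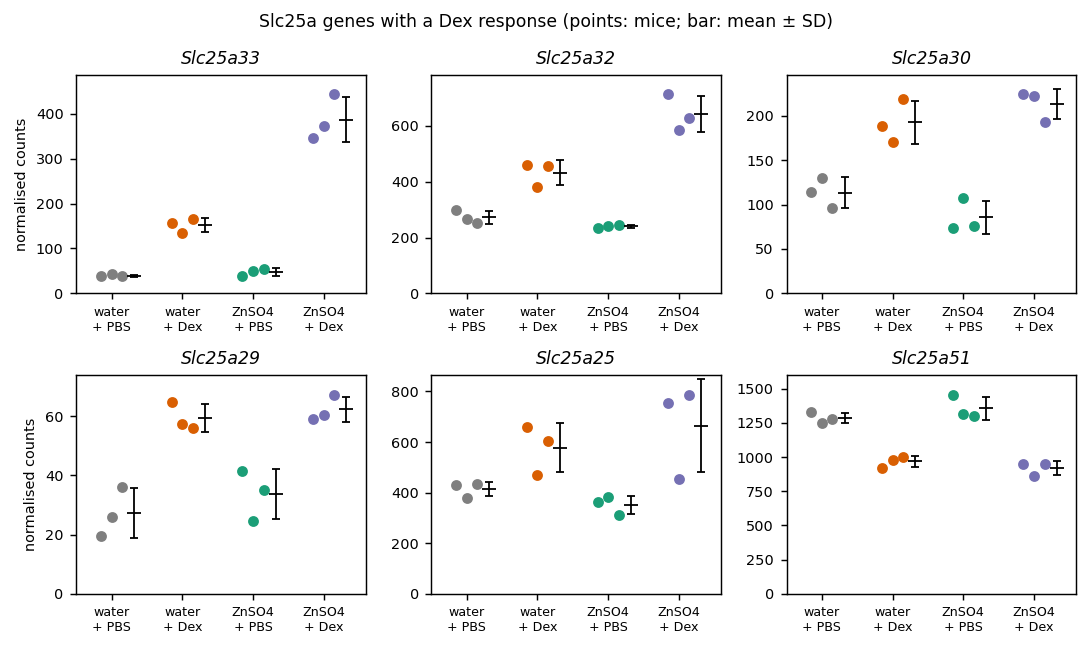
Normalised counts of 6 Slc25a genes in each of the 12 mice, 3 per group, with the group mean and SD beside the points. Slc25a33, Slc25a32, Slc25a30 and Slc25a29 are higher in all Dex mice than in all PBS mice, Slc25a51 is lower in all Dex mice, and for Slc25a25 the ZnSO4 + Dex mice spread from 455 to 787.

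Sequences before the start sites are shown for 3 carriers that rose with Dex in both comparisons. The carrier with the largest rise under ZnSO4 in PBS mice is shown as well. Direct action of the glucocorticoid receptor or of the metal-sensing factor on these genes was not tested. RefSeq windows (GRCm38.p6, 250 bases before to 50 after a start) were matched by symbol for 36 of the 47 genes, with 46 windows, and Slc25a32 and Slc25a51 had none. The motifs searched on both strands were AGAACA, recognised by the glucocorticoid receptor, the same letters followed by 3 free bases and TGTTCT as the full palindrome, and TGCACNC and TGCGCNC, the cores of metal response elements. AGAACA is part of the palindrome. The printed stretches are the 250 bases before the start, 5′ to 3′ on the strand of the gene, with matches in capitals.

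Slc25a33 lies on the minus strand at chr4:149774268-149774517 in this stretch, Slc25a30 on the minus strand at chr14:75787038-75787287, Slc25a29 on the minus strand at chr12:108835877-108836126 and Slc25a45 on the plus strand at chr19:5877572-5877821.
Slc25a33: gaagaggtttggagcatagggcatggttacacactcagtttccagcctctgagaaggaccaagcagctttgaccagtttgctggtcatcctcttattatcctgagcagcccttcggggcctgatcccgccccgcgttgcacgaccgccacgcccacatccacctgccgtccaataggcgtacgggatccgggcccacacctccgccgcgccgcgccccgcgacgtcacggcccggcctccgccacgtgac
Slc25a30: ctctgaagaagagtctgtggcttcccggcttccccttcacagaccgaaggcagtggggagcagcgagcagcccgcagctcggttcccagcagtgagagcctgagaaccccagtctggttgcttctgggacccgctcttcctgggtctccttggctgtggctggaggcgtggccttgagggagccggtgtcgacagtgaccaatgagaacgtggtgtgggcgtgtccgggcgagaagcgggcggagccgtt
Slc25a29: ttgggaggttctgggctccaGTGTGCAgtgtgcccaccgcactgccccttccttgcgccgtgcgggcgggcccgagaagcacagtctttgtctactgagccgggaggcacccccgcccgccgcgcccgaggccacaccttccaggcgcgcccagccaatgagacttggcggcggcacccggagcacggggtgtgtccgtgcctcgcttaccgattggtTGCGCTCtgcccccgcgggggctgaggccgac
Slc25a45: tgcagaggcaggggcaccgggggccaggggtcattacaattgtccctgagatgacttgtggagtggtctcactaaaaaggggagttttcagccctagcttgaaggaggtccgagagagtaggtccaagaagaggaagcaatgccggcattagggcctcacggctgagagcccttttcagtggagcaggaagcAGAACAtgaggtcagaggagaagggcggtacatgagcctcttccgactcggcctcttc
The stretches of Slc25a33 and Slc25a30 held no match to these motifs and were 64.4% G and C each, with 23 and 16 CG pairs. That of Slc25a29 held a match to TGCACNC on the opposite strand, starting 230 bases before the start, and 1 to TGCGCNC starting 32 bases before it. That of Slc25a45 held AGAACA 58 bases before its start and was 56.4% G and C with 7 CG pairs. Over the windows of 300 bases, AGAACA was in 8.7% of the 46 carrier windows and in 19% of 32851 windows of all genes, TGCACNC in 6.52% and 12.6%, TGCGCNC in 21.7% and 15.4%, and the palindrome in 0 and 0.00913%. A match describes letters and is not a binding site.

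Among the carriers raised by ZnSO4, Slc25a45 changed most in PBS mice. Slc25a45 (ENSMUSG00000024818, chr19:5877808-5885878), a less studied carrier, had 69.1, 147 and 91.2 normalised counts in water + PBS and 348, 273 and 235 in ZnSO4 + PBS. It had 94.8, 88.6 and 65.9 in water + Dex and 110, 110 and 142 in ZnSO4 + Dex. The ZnSO4 + PBS mice lay above all others, and the ZnSO4 + Dex mice overlapped the water + PBS mice. Its LFC was 1.48 with ZnSO4 in PBS mice (SE 0.26, adjusted p = 0.00974) and -1.24 with Dex in ZnSO4 mice (SE 0.26, adjusted p = 0.00707). Both calls were kept without any 1 library. Of the 4 crypt markers, all present, Lgr5 of stem cells was called in these comparisons with the same signs (LFC 0.74, adjusted p = 0.0204, and -0.65, adjusted p = 0.015), and Top2a rose with Dex in ZnSO4 mice (LFC 0.43, adjusted p = 0.0444). The summed crypt markers lay between 11890 and 14572 in water + PBS, 13078 and 15871 in water + Dex, 12182 and 12851 in ZnSO4 + PBS and 12889 and 14273 in ZnSO4 + Dex, and their part in the changes of Slc25a45 was not tested.

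The muscle and heart form of the ADP/ATP carrier, Slc25a4 (ENSMUSG00000031633), rose with ZnSO4 whatever the injection. It had 933, 994 and 1070 normalised counts in water + PBS and 1006, 985 and 1015 in water + Dex. It had 1229, 1316 and 1348 in ZnSO4 + PBS and 1427, 1304 and 1564 in ZnSO4 + Dex, with no overlap between ZnSO4 and water mice. The LFC was 0.38 in PBS mice (SE 0.08, adjusted p = 0.0223) and 0.51 in Dex mice (SE 0.08, adjusted p = 0.00443). The call in PBS mice was lost without water + PBS replicate 1 or 2 or ZnSO4 + PBS replicate 2 or 3 (adjusted p up to 0.0919). The more abundant Slc25a5 had means of 11612 ± 625 in water + PBS, 14161 ± 847 in water + Dex, 10377 ± 773 in ZnSO4 + PBS and 11708 ± 1389 in ZnSO4 + Dex and was called in no comparison. Markers of smooth muscle, a tissue rich in Slc25a4, also differed between libraries. The 6 markers, all present, summed to between 14568 and 19021 normalised counts in water + PBS, 18286 and 19450 in water + Dex, 17110 and 30818 in ZnSO4 + PBS and 20889 and 30347 in ZnSO4 + Dex. The marker Myh11 was called in the combined treatment (LFC 0.70, adjusted p = 0.0445). ZnSO4 + PBS replicates 1 and 2 had marker sums of 17333 and 17110, within the range of the water mice, while the other 4 ZnSO4 mice had sums above every water mouse. The part of these cells in the changes of Slc25a4 and Slc25a23 was not tested.

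Of the ATP-Mg/phosphate carriers, which set the adenine nucleotide content of the matrix in response to calcium, Slc25a23 and Slc25a25 rose and Slc25a24 was not called. Slc25a23 had means of 179 ± 12.9 normalised counts in water + PBS, 188 ± 25.5 in water + Dex, 282 ± 40.7 in ZnSO4 + PBS and 297 ± 46.6 in ZnSO4 + Dex. Its LFC with ZnSO4 was 0.65 in PBS mice (adjusted p = 0.0316) and 0.66 in Dex mice (adjusted p = 0.0289), with no overlap in either. The call in PBS mice was lost without any water + PBS mouse or ZnSO4 + PBS replicate 1 or 3 (up to 0.125), and that in Dex mice without any water + Dex mouse or ZnSO4 + Dex replicate 2 (up to 0.12). Slc25a25 (ENSMUSG00000026819, chr2:32414487-32451445) had 428, 380 and 434 normalised counts in water + PBS, 659, 471 and 605 in water + Dex, 362, 382 and 310 in ZnSO4 + PBS, and 753, 455 and 787 in ZnSO4 + Dex. Dex mice lay above PBS mice within either drinking fluid. The LFC with Dex was 0.92 (SE 0.19, adjusted p = 0.00712) in ZnSO4 mice, and without ZnSO4 + Dex replicate 2 it was 1.13 with the call kept. In water mice the LFC was 0.48 (adjusted p = 0.149).

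Slc25a48 (ENSMUSG00000021509, chr13:56438355-56474239), a choline carrier, had the largest fall among called carriers. It had 1142, 1688 and 2084 normalised counts in water + PBS, 1251, 1272 and 1423 in water + Dex, 1099, 905 and 704 in ZnSO4 + PBS, and 428, 200 and 525 in ZnSO4 + Dex. The ZnSO4 + Dex mice lay below all other mice, and the ZnSO4 + PBS mice below all water mice. With ZnSO4 in PBS mice the LFC was -0.86 (SE 0.30, adjusted p = 0.134, edgeR), which was not called. The study's own DESeq2 analysis gave an adjusted p under 0.05 for this comparison, so the result depends on the tool. With Dex in water mice the LFC of Slc25a48 was -0.32 (adjusted p = 0.581, edgeR). ZnSO4 lowered it in Dex mice (LFC -1.78, SE 0.31, adjusted p = 0.00896), Dex lowered it in ZnSO4 mice (LFC -1.23, SE 0.31, adjusted p = 0.0204), and the combined treatment gave an LFC of -2.09 (SE 0.31, adjusted p = 6.52e-04). The lowest value was that of ZnSO4 + Dex replicate 2, the mouse with the fewest enterocyte marker counts. Leaving it out gave LFCs of -1.46, -0.92 and -1.78 for these comparisons, each still called. The call of Dex in ZnSO4 mice was lost without ZnSO4 + PBS replicate 1 or ZnSO4 + Dex replicate 1 (adjusted p up to 0.0802).

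**Figure D5:**
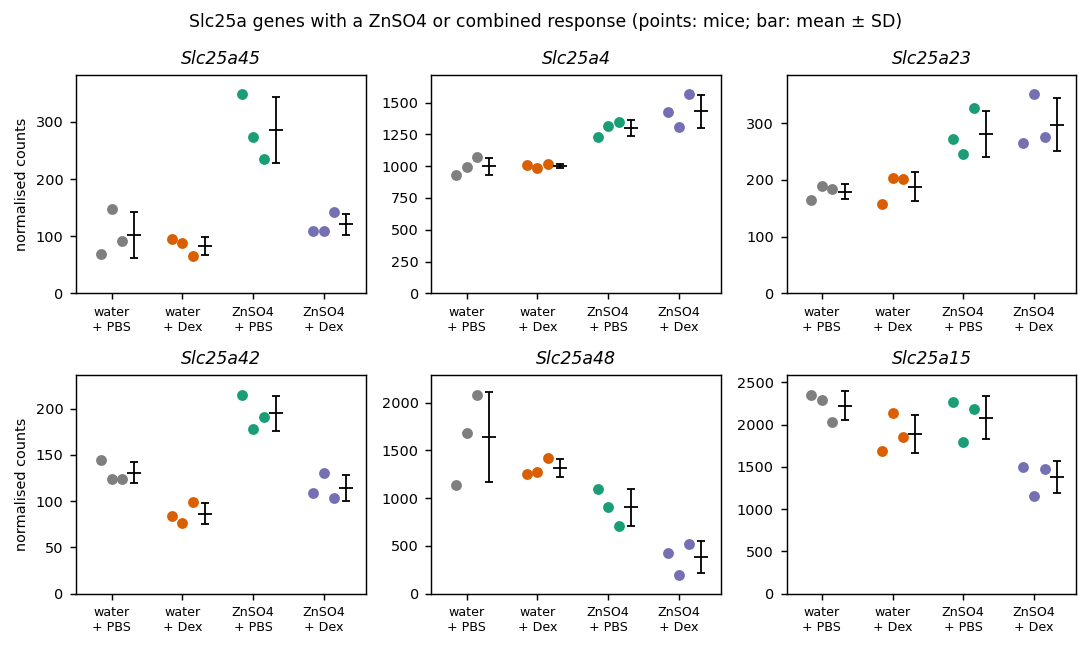
Normalised counts of 6 Slc25a genes in each of the 12 mice, 3 per group, with the group mean and SD beside the points. Slc25a4 and Slc25a23 are higher in all ZnSO4 mice than in all water mice, Slc25a45 is highest in ZnSO4 + PBS, and Slc25a48 is lowest in ZnSO4 + Dex.

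The other called carriers included Slc25a34. Slc25a34 (ENSMUSG00000040740, chr4:141618824-141623821), whose substrate is uncertain, had 234, 150 and 109 normalised counts in water + PBS, 58.0, 123 and 46.5 in water + Dex, 125, 189 and 151 in ZnSO4 + PBS, and 81.9, 18.3 and 65.1 in ZnSO4 + Dex. The ZnSO4 + Dex mice lay below the water + PBS mice (LFC -1.58, SE 0.49, adjusted p = 0.0371), and the call was lost without water + PBS replicate 1 or 2 or ZnSO4 + Dex replicate 2 or 3 (up to 0.127). Without ZnSO4 + Dex replicate 2 its LFC was -1.16 (adjusted p = 0.08). Slc25a47 (ENSMUSG00000048856, chr12:108836046-108856815), known from liver, had 24.3, 13.0 and 17.1 in water + PBS, 30.1, 21.6 and 50.8 in water + Dex, 16.0, 12.8 and 16.7 in ZnSO4 + PBS, and 31.1, 48.0 and 27.8 in ZnSO4 + Dex. It rose with Dex in ZnSO4 mice (LFC 1.23, SE 0.35, adjusted p = 0.039), a call lost in 7 of the 12 fits without 1 library (up to 0.147), namely without water + PBS replicate 3, water + Dex replicate 1, any ZnSO4 + PBS mouse or ZnSO4 + Dex replicate 1 or 2. The mice with the most Slc25a47, water + Dex replicate 3 and ZnSO4 + Dex replicate 2, also had the most of the liver marker Alb (3856 and 2201 normalised counts, against 16.7 to 555 in the other mice). Alb had an LFC of 4.06 in this comparison (adjusted p = 0.173), and its part in the rise of Slc25a47 was not tested. The outermost GENCODE start of Slc25a47 lies 162 bases from that of Slc25a29 on the opposite strand. The RefSeq window of Slc25a47 lies farther away, at chr12:108850879-108851178. Slc25a44, a carrier of branched-chain amino acids, had means of 745 in water + PBS, 632 in water + Dex, 869 in ZnSO4 + PBS and 585 in ZnSO4 + Dex. It fell with Dex in ZnSO4 mice (LFC -0.57, adjusted p = 0.00398) and with the combined treatment (LFC -0.35, adjusted p = 0.0353). The latter call was lost without any water mouse or without ZnSO4 + Dex replicate 1 or 2 (up to 0.115). Slc25a28, mitoferrin of non-erythroid cells, rose with Dex in ZnSO4 mice from a mean of 179 to 240 (LFC 0.43, adjusted p = 0.0192), and Slc25a10, the dicarboxylate carrier, fell from 1607 to 1204 (LFC -0.42, adjusted p = 0.0306) with overlapping groups. Both calls were lost without ZnSO4 + PBS replicate 1 or 3 or ZnSO4 + Dex replicate 1 or 2, with an adjusted p of up to 0.0712 and 0.124. With the combined treatment Slc25a46, an outer membrane protein of mitochondrial dynamics, rose from 808 to 984 (LFC 0.28, adjusted p = 0.0291) and Slc25a11, the oxoglutarate carrier, fell from 1078 to 887 (LFC -0.28, adjusted p = 0.0341). The call of Slc25a46 was lost without water + PBS replicate 1 or 2 or ZnSO4 + Dex replicate 1 or 3 (up to 0.114). That of Slc25a11 was lost without water + PBS replicate 1 or 3, water + Dex replicate 1, ZnSO4 + PBS replicate 1 or ZnSO4 + Dex replicate 1 or 2 (up to 0.113), and 8.92% of its exons are covered on the other strand by Rnf167, with a mean of 722 normalised counts.

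The combined treatment also held the changes already given for separate agents. Against water + PBS, Slc25a33 had an LFC of 3.28 (SE 0.16, adjusted p = 2.15e-07), Slc25a32 of 1.24, Slc25a29 of 1.19, Slc25a30 of 0.91, Slc25a23 of 0.73, Slc25a25 of 0.68 and Slc25a4 of 0.52. Slc25a51 had an LFC of -0.48. The rise of Slc25a25 was lost without water + PBS replicate 1 or 2 or ZnSO4 + Dex replicate 1 or 3 (adjusted p up to 0.0861). Of the 46 calls of a carrier in a comparison, 28 were kept in every fit without 1 library and 18 were lost in at least 1.

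The 19 carriers called nowhere included the 5 most abundant ones, Slc25a5, Slc25a24, Slc25a3, Slc25a1 and Slc25a39. Also among them were the second glutathione carrier Slc25a40, the acylcarnitine carrier Slc25a20, mitoferrin Slc25a37, the glycine carrier Slc25a38 and the aspartate and glutamate carriers Slc25a12, Slc25a13 and Slc25a22. Slc25a22, a glutamate carrier, spread from 731 to 3529 normalised counts over the 12 mice, with the lowest value in ZnSO4 + Dex replicate 2. The lack of a call does not show that these genes did not differ.

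Genes that work with the carriers changed singly as well. Of 4 tested carriers of the family outside the Slc25a symbols, the uncoupling protein Ucp2 rose with Dex in water mice (LFC 0.44, adjusted p = 0.0352) and with the combined treatment (0.78, adjusted p = 6.69e-04), and the others were not called. Among 18 other inner membrane transporters, Slc8b1, the mitochondrial sodium-calcium exchanger, rose in 3 comparisons, from a mean of 122 in water + PBS to 237 in ZnSO4 + Dex (LFC 0.96, adjusted p = 0.00124). Abcb10, an ABC transporter of heme-making cells, fell in the same 3, from 689 to 412 (LFC -0.74, adjusted p = 7.24e-04), and Micu2, a gatekeeper of the calcium uniporter, fell in the combined treatment (LFC -0.30, adjusted p = 0.0359). Without ZnSO4 + Dex replicate 2, the calls of Micu2 (LFC -0.23, adjusted p = 0.105) and of Abcb10 with Dex in ZnSO4 mice (-0.30, adjusted p = 0.0796) were lost. The other pathway calls given here for comparisons with ZnSO4 + Dex mice were kept, and no such check is given for the other comparisons. Of 15 tested genes of the import machinery that inserts carriers, Tomm70a, the outer membrane receptor for carrier precursors, rose with Dex in water mice (LFC 0.35, adjusted p = 0.0121), with Dex in ZnSO4 mice (0.43, adjusted p = 0.00235) and with the combined treatment (0.33, adjusted p = 0.0084).

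Of 10 mitochondrial folate genes, the pathway fed by Slc25a32, Shmt2 fell with ZnSO4 in PBS mice (LFC -0.70, adjusted p = 0.0415) and with the combined treatment (-0.52, adjusted p = 0.0462), as did Mthfd2 in the latter (-0.58, adjusted p = 0.0399). Gldc of the glycine cleavage system passed the test upwards with Dex in water mice and with the combined treatment, with at most 2.85 normalised counts in water + PBS and at most 14.4 in ZnSO4 + Dex, so no fold is given. Of 5 tested genes of the carnitine shuttle around Slc25a20, the plasma membrane carnitine transporter Slc22a5 rose with Dex in water mice (LFC 1.47, adjusted p = 4.33e-04) and in ZnSO4 mice (1.19, adjusted p = 0.00128) and with the combined treatment (1.12), and Cpt1a, which makes acylcarnitine, fell with Dex in water mice (LFC -0.80, adjusted p = 0.0186). Of 4 enzymes of the malate-aspartate shuttle, the cytosolic aminotransferase Got1 rose with Dex in water mice (LFC 1.26, adjusted p = 0.00122), in ZnSO4 mice (1.52, adjusted p = 2.82e-04) and with the combined treatment (1.22). Of 7 heme and iron-sulfur genes, Alas1, the first enzyme of heme synthesis, rose in the same 3 comparisons by an LFC of 0.70, 0.58 and 0.45. Abcb10 is in that list too. The other genes of the lists given here were called in none of the 5 comparisons.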

How the data were processed

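Per the labels and the study's methods, stranded libraries were read single-end, mapped to mm10 with HISAT (2.0.4 in the submitters' processing notes) and counted with featureCounts. Reads with several positions were excluded, and the annotation release and strand setting are not given in the sources used here. The authors deposited raw counts per gene, not normalised. Positions and lengths come from GENCODE M21 (GRCm38, the assembly of mm10).

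In R 4.3.3, the filterByExpr function of edgeR 4.0.16 (minimum count 10) kept 15938 genes with 99.83% of the counts, which were normalised by TMM and fitted with 4 group means in 1 quasi-likelihood model (common biological coefficient of variation 0.191). Each SE is the LFC divided by the root of the F statistic. TPM were computed from the counts and exon lengths. The labels mark 3 separate mice per group, and an exact permutation test of 3 against 3 cannot go below p = 0.1. Alternatives were DESeq2 1.42.0 (Wald test), RLE factors, all genes with at least 1 count, a mean CPM of at least 1, only the groups compared, the replicate number as a block, a B cell covariate, an LFC over 0.8 in size, and each of 12 libraries left out in turn. Library totals without TMM factors were added after the data had been seen. The procedure was also run on simulated counts, and the outcome of that run is not given here. No libraries within a group were as alike as repeated runs (chi-square per degree of freedom at least 7.84).

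The family and the gene lists were chosen with earlier results of these data known. Values in every library are given for carriers called with an LFC over 0.8 in size, and LFC, adjusted p and means for the other called carriers. Calls in the pathway lists are counted over all tested genes. Some items are not reported here.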

Additional observations from a re-analysis of the deposited data

How the results depend on the processing

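None of the 46 calls of a carrier changed direction under the alternatives run, and 31 were kept in all fits other than those without 1 library. With 3 mice per group and a median of 11388606 counted reads, small changes and carriers with few counts cannot be resolved. Sums over carriers rest in part on Slc25a5, which held 25.6% of the family's counts and 45.7% of its summed level per length. The cause of the movements below was not tested. Counts of carriers under the alternatives are given without the share of all genes called there, and describe only how the carrier counts moved.

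Scaling by library totals without TMM factors, an alternative chosen after seeing the data, moved the median LFC of all tested genes from -0.01 to -0.13 with Dex in water mice and from 0.01 to 0.12 with ZnSO4 in Dex mice. The carrier medians moved with it, to 0.0699 with ZnSO4 in PBS mice, -0.1070 with Dex in water mice, 0.1689 with ZnSO4 in Dex mice, -0.0596 with Dex in ZnSO4 mice and 0.0082 for the interaction. Dex in water mice then lowered 4 carriers, and Slc25a28 was lost with Dex in ZnSO4 mice (adjusted p = 0.0738).

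With DESeq2, ZnSO4 lowered 1 carrier in PBS mice and 3 in Dex mice, and the median was -0.0161 with ZnSO4 in PBS mice and -0.0078 for the interaction. The median with ZnSO4 in PBS mice was 0.0219 with RLE factors, -0.0147 with all genes of at least 1 count (which gave -0.0059 for the interaction), -0.0003 with the B cell covariate and 0.0245 in a fit of only the groups compared. That covariate gave medians of -0.0217 with Dex in ZnSO4 mice and 0.0094 with the combined treatment, which then lowered 3 carriers. In a fit of only the groups compared, ZnSO4 raised 2 carriers in PBS mice and 3 in Dex mice, the combined treatment lowered 3, and the median with Dex in ZnSO4 mice was -0.0235. At an LFC over 0.8 in size, ZnSO4 raised 1 carrier in PBS mice and 1 in Dex mice, Dex in water mice raised 2 and lowered 0, Dex in ZnSO4 mice lowered 2, and the combined treatment raised 5 and lowered 2.

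The family's share without Slc25a5 was 3102 CPM in water + PBS, 2906 in water + Dex, 3238 in ZnSO4 + PBS and 2854 in ZnSO4 + Dex. Over effective library sizes the share of the whole family was 4100.1 in water + PBS, 4361 in water + Dex, 4004 in ZnSO4 + PBS and 3867 in ZnSO4 + Dex, so that water + Dex lay above water + PBS instead of below it.

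Leaving out 1 library gave 1 to 4 carriers raised and 0 to 1 lowered by ZnSO4 in PBS mice (median -0.0110 to 0.1093), 3 to 5 and 1 to 2 by Dex in water mice (-0.0359 to 0.0412), 3 to 5 and 1 by ZnSO4 in Dex mice (0.0331 to 0.0885), 4 to 7 and 5 to 9 by Dex in ZnSO4 mice (-0.0599 to 0.0209), and 7 to 11 and 3 to 6 by the combined treatment (-0.0078 to 0.0645), with 0 for the interaction in either direction (-0.0903 to -0.0057).

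The labels do not state that same-numbered mice are paired. The residuals of same-numbered mice of different groups had a median correlation of -0.06 (18 pairs, from -0.36 to 0.46). Those of other-numbered mice had a median of 0.02 (36 pairs). Of 12 libraries, 4 were closest to 1 of their own number. These values cannot settle whether the mice were paired. With the replicate block, the carriers raised and lowered were 3 and 0, 4 and 2, 4 and 1, 6 and 8, and 10 and 5 in the order above, and 0 for the interaction. The block moved Slc25a42 with ZnSO4 in PBS mice to an adjusted p of 0.0697, Slc25a17 with ZnSO4 in Dex mice to 0.068, Slc25a47 with Dex in ZnSO4 mice to 0.06, and Slc25a11 and Slc25a34 with the combined treatment to 0.0521 and 0.0633.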
